A study of Mus musculus with 8 samples.

Results

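The 10 genes described here encode the ligands, receptors and latency proteins of the TGF-beta pathway together with a pair of its intracellular inhibitors. They were chosen by name as Tgfb1, Tgfb2, Tgfb3, Tgfbr1, Tgfbr2, Tgfbr3, Ltbp1, Ltbp3, Smad7 and Skil, and each symbol was found once among the 51912 genes of the deposited table. RNA was sequenced from mesenchymal cells sorted from mouse lung at embryonic day 16, in 4 libraries of Sin3a CKO embryos (genotype Tbx4rtta; tetocre; Sin3a F/F) and 4 of Control embryos (Tbx4rtta; tetocre; Sin3a F/+). Both groups carried the Tbx4-driven rtTA and the tetO-Cre transgene, and both came from mothers fed doxycycline from embryonic day 12. Controls therefore hold 1 floxed and 1 wild-type Sin3a allele and can lose the floxed one, so the design sets loss of both alleles against loss of 1, in the cells that the Tbx4 driver reaches. The labels call the libraries biological replicates and do not say whether a library came from 1 embryo or several.

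TGF-beta ligands are secreted in a latent form, each wrapped in its own propeptide and usually tied to a latent TGF-beta binding protein (LTBP) that anchors it in the fibrillin matrix. Integrins that contain the alpha v chain, and proteases, free the ligand, which binds the type II receptor; this recruits the type I receptor, whose kinase activates SMAD2 and SMAD3. In the developing lung the pathway is known for restraining airway branching and for driving smooth muscle, myofibroblast and matrix gene expression in the mesenchyme. SIN3A, the protein encoded by the targeted gene, is a scaffold for histone deacetylase corepressor complexes.

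Library totals ranged from 96098322 to 108493347 counts. Sin3a itself had 53.2 to 61 CPM (counts scaled to a common library total) in Sin3a CKO and 46.2 to 58.7 CPM in Control libraries, and did not pass the test (adjusted p = 0.191, log2 fold change 0.17 ± 0.09, and past the threshold in 3 of 20 other settings); reads outside the floxed exons count toward it, so this level does not check the deletion. Of 12 mesenchyme markers, none stayed under 1 CPM in every library. Their summed level was 12878.6 to 14449.1 CPM in Sin3a CKO and 17637.2 to 24165.6 CPM in Control libraries, with 6 of 12 lower and 1 higher by the test; their part in the falls described here was not tested. The collagens Col1a1, Col1a2 and Col3a1 made up 76.6% to 83.8% of that sum in each library, and all 3 were lower. The other 9 markers summed to 2838.1 to 3089.4 CPM in Sin3a CKO and 3190.4 to 4320.7 CPM in Control libraries; 3 were lower (Pdgfra, Pdgfrb and Foxf1), 1 was higher (Meox2) and 5, Vim, Tbx4 and Tcf21 among them, did not pass. The sum of erythroid markers was higher without overlap (1097.5 to 4291.4 CPM in Sin3a CKO, 101.7 to 884.2 CPM in Control). By the test 6 of the 12 were higher and 6 did not pass. Epithelium markers summed to 58.5 to 1364.3 CPM in Sin3a CKO and 58.8 to 481.7 CPM in Control libraries, and 0 of 16 passed. Control 4 lay farthest out on the first principal component (114.9, with the other libraries between -79.4 and 73.3) and held 24.6 CPM of immune markers, against 328.5 to 640.2 CPM in the other controls. Xist was above 10 CPM in 2 libraries of each group, so both groups held female and male cells.

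Of the 10 genes, 8 fell in Sin3a CKO and none rose by edgeR's quasi-likelihood test at an adjusted p under 0.05, where 16.1% of the 20315 genes tested were lower, 17.3% higher and 33.4% either. The share depends on the level of the genes. With only the 9905 genes that averaged at least 10 CPM, 2691 (27.2%) were lower and 3019 higher, and the same 8 members fell. All 3 ligands (Tgfb1, Tgfb2 and Tgfb3), both latency proteins (Ltbp1 and Ltbp3), the signalling receptor Tgfbr2, the co-receptor Tgfbr3 and the inhibitor Skil were lower, at 48% to 69% of their Control level. The type I receptor gene Tgfbr1 and the inhibitor Smad7 did not pass. The median log2 fold change over the 10 genes was -0.63, beside 0.04 over all genes tested. For the 8 genes that fell, all 4 Sin3a CKO libraries lay below all 4 Control libraries, which was so for 17.5% of all genes tested; 36.1% did not overlap in either direction. The count stayed at 8 without Control 4 and Sin3a CKO 3 together, and whenever 1 library was left out. All 10 passed the filter on low counts, with 640 to 34596 counts per library. In bulk RNA, fewer cells that express a gene and less RNA per cell cannot be told apart.

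**Figure D1:**
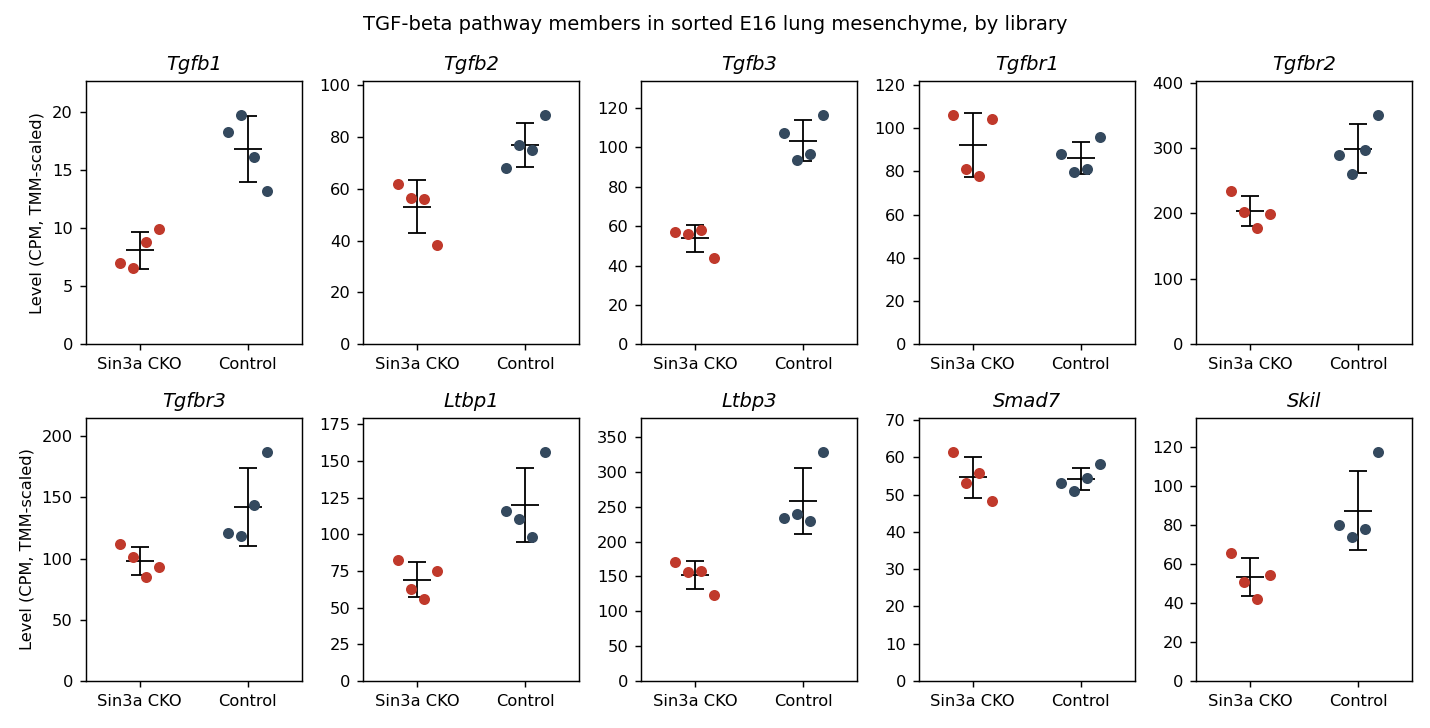
Level of each gene in CPM, with 1 point per library, the mean as a horizontal bar and the SD as whiskers (n = 4 per group), Sin3a CKO left of Control; every vertical axis starts at 0. The groups are apart for Tgfb1, Tgfb2, Tgfb3, Tgfbr2, Tgfbr3, Ltbp1, Ltbp3 and Skil and overlap for Tgfbr1 and Smad7.

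When trends of each library with exon length and GC content were removed, 5 of the 10 fell (Tgfb1, Tgfb3, Ltbp1, Ltbp3 and Skil), while the share of all genes that were lower went down to 10.3%. The calls of Tgfb2, Tgfbr2 and Tgfbr3 ended there, at -0.45, -0.38 and -0.41 on the log2 scale (adjusted p = 0.0614, 0.0522 and 0.105).

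The ligands differ in where they are made and how they are freed. Tgfb1 (ENSMUSG00000002603, chromosome 7, 25687002 to 25705077, GRCm38) encodes the ligand best known from platelets, immune cells and endothelium. It had 6.97, 6.57, 8.83 and 9.91 CPM in Sin3a CKO 1 to 4, against 18.3, 19.7, 16.1 and 13.2 CPM in Control 1 to 4. Every knockout library was below every control, and the lowest control was Control 4, the library with the fewest immune transcripts. Tgfb1 fell by 1.06 ± 0.17 in log2 units (the error is the SE, as for every log2 fold change here; adjusted p = 0.00123), the largest fall among the 10 genes. With the immune markers as a covariate, chosen after these values were seen, the log2 fold change was -1.11 ± 0.14 (adjusted p = 0.00045). Whether immune, platelet or endothelial RNA had a part in the fall was not tested.

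Tgfb3 (ENSMUSG00000021253, chromosome 12, 86056745 to 86079041) encodes the ligand known in mice to be needed for palate closure and lung maturation. Its level was 57, 56.2, 58.2 and 43.8 CPM in Sin3a CKO 1 to 4, against 107.1, 93.8, 96.5 and 116.3 CPM in Control 1 to 4. The Sin3a CKO libraries sat near 57 CPM but for the fourth, which was lower, and all were far below the controls. Tgfb3 fell by 0.94 ± 0.11 (adjusted p = 0.000195), the smallest p of the 10 genes.

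Tgfb2 (ENSMUSG00000039239, chromosome 1, 186622792 to 186705989) encodes the ligand that binds the type II receptor poorly without its co-receptor. It had 61.8, 56.4, 56.1 and 38.4 CPM in Sin3a CKO 1 to 4, against 68.1, 76.9, 74.9 and 88.4 CPM in Control 1 to 4. The highest knockout and the lowest control were close to each other, and the spread was set by Sin3a CKO 4 at the low end and Control 4 at the high end. Tgfb2 fell by 0.54 ± 0.14 (adjusted p = 0.0162).

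Set side by side per exon length, the ligands are far from equal in this mesenchyme. Tgfb3 averaged 15.9 ± 1.98 CPM per kb of exon in Sin3a CKO and 30.6 ± 3.06 in Control libraries (SD, n = 4 each). Tgfb2 averaged 9.18 ± 1.76 CPM per kb in Sin3a CKO and 13.3 ± 1.46 in Control libraries. Tgfb1 was the lowest of all 10 genes, at 1.6 ± 0.312 CPM per kb in Sin3a CKO and 3.33 ± 0.559 in Control libraries. As a share of the 3 ligands within a library, which no scaling between libraries can change, Tgfb2 made up 36.9%, 35.2%, 33.8% and 30.8% in Sin3a CKO 1 to 4, against 25%, 29.6%, 29% and 29.2% in Control 1 to 4. The share of Tgfb2 was thus higher in each knockout than in any control, while its level was lower. Tgfb3 made up 58.3% to 60.1% in Sin3a CKO and 61.7% to 67.3% in Control libraries, without overlap, and the share of Tgfb1 overlapped (4.72% to 9.12% in Sin3a CKO, 5.01% to 8.69% in Control). These shares and the ratios between members given further on were chosen after the values were seen and have no test.

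The promoters of Tgfb1 and Tgfb2 are shown for comparison. Whether these ligands fell by different amounts was not tested. Each promoter is given as the 250 bases before the RefSeq transcription start on GRCm38.p6, 5′ to 3′ in the direction of the gene. Capitals mark matches on either strand to any of the motifs searched. GGGCGG is a GC box, which SP1 binds. The E-box searched, CACGTG, is of the kind bound by MYC and MAX family dimers. The CAGA box, a SMAD binding sequence, was searched as CAGACA.
Tgfb1, chr7:25686752-25687001, plus strand: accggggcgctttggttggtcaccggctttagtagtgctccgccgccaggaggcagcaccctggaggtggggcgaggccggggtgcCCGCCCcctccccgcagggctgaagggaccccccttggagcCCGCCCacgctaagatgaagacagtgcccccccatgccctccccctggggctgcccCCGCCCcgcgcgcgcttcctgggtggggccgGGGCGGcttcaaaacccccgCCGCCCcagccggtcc
Tgfb2, chr1:186705990-186706239, minus strand: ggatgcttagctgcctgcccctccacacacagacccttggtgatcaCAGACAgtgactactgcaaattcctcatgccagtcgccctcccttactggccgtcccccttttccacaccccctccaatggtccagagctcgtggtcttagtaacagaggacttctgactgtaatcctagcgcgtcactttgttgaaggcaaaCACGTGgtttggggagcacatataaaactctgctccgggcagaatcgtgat
The Tgfb1 promoter is GC-rich (75.2% G and C, 21 CG dinucleotides) and holds 5 GC boxes. The Tgfb2 promoter has 53.6% G and C and 8 CG dinucleotides, near the median of 52.4% over 32851 promoters, with 1 E-box that begins at position -51 and 1 CAGA box at position -204 from the start. A GC box was in 32.7% of all promoters in the table, the E-box in 6.02% and the CAGA box in 17.1%. The longer SMAD palindrome GTCTAGAC, present in 0.167% of promoters, the AP-1 site TGACTCA and the cyclic AMP response element TGACGTCA were also searched on both strands, and neither ligand promoter held them. The matches are letters in a window and say nothing of binding.

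Among the latency proteins, LTBP1 and LTBP3 both bind the propeptides of TGF-beta covalently and store the ligand in the matrix. Ltbp1 (ENSMUSG00000001870, chromosome 17, 75005568 to 75392512) had 82.5, 62.5, 56 and 75.3 CPM in Sin3a CKO 1 to 4, against 115.8, 110.1, 98 and 156.1 CPM in Control 1 to 4. The groups did not overlap, and Control 4 stood highest. Ltbp1 fell by 0.80 ± 0.16 (adjusted p = 0.00428).

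Ltbp3 (ENSMUSG00000024940, chromosome 19, 5740904 to 5758532) had 170.9, 157.1, 157.6 and 122.9 CPM in Sin3a CKO 1 to 4, against 234.4, 239.3, 230.3 and 328.7 CPM in Control 1 to 4. Of the controls 3 lay close together and Control 4 was well above them, but each control was above every knockout. Ltbp3 fell by 0.76 ± 0.14 (adjusted p = 0.00223), against 0.42 ± 0.13 once length and GC trends were taken out (adjusted p = 0.0398) and 0.68 ± 0.10 without Control 4.

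Among the receptor genes, Tgfbr2 and Tgfbr3 fell and Tgfbr1 did not pass the test. Tgfbr2 (ENSMUSG00000032440, chromosome 9, 116084293 to 116175360) encodes the type II receptor, which binds the ligand first. Its level was 233.8, 202.8, 178.3 and 199.4 CPM in Sin3a CKO 1 to 4, against 289.3, 260.1, 296.7 and 350 CPM in Control 1 to 4. All knockouts lay below all controls, with Sin3a CKO 1 and Control 2 nearest each other. Tgfbr2 fell by 0.55 ± 0.11 (adjusted p = 0.00363), and it had the highest level per exon length of the 10 genes in both groups, at 24.9 ± 2.79 CPM per kb in Sin3a CKO and 36.5 ± 4.58 in Control libraries.

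Tgfbr1 (ENSMUSG00000007613, chromosome 4, 47353222 to 47414931) encodes the type I receptor kinase. It had 105.9, 81.3, 78 and 104.2 CPM in Sin3a CKO 1 to 4, against 88.2, 79.7, 81.2 and 95.9 CPM in Control 1 to 4. The highest and the lowest values were both in knockouts, and the groups overlapped throughout. Its log2 fold change was 0.10 ± 0.12 (adjusted p = 0.586), with a 95% interval of -0.16 to 0.36. The upper and lower bounds leave room for a modest change either way.

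Tgfbr3 (ENSMUSG00000029287, chromosome 5, 107106570 to 107289629) encodes betaglycan, the co-receptor that presents ligand, above all TGF-beta2, to the type II receptor. Its level was 111.7, 101.6, 85.2 and 93.3 CPM in Sin3a CKO 1 to 4, against 120.6, 118.3, 143.6 and 187 CPM in Control 1 to 4. The groups were apart but Sin3a CKO 1 came within reach of Control 1 and Control 2. Tgfbr3 fell by 0.54 ± 0.15 (adjusted p = 0.0199), and its call also ended with the epithelium markers as a covariate (-0.51 ± 0.18, adjusted p = 0.051).

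The balance of the receptor pair can be read within a library. Counts of Tgfbr1 over those of Tgfbr2, each per exon length, were 0.567, 0.502, 0.548 and 0.654 in Sin3a CKO 1 to 4, against 0.382, 0.384, 0.343 and 0.343 in Control 1 to 4. The ratio averaged 0.568 ± 0.0638 in Sin3a CKO and 0.363 ± 0.0231 in Control libraries (SD, n = 4 each), with no overlap. It is a ratio of RNA levels and does not give the balance of receptor proteins. Library trends with exon length and GC content were left in the ratio. With them removed, the log2 fold changes were 0.046 ± 0.185 for Tgfbr1 and -0.384 ± 0.128 for Tgfbr2.

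The promoters of the receptor pair are shown because Tgfbr2 fell and Tgfbr1 did not pass the test. The window, direction and marking are those used for the ligands.
Tgfbr2, chr9:116175364-116175613, minus strand: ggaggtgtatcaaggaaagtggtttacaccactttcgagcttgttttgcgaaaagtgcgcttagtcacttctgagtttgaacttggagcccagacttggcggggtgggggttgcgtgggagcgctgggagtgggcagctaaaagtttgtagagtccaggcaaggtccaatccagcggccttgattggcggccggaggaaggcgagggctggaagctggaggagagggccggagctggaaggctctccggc
Tgfbr1, chr4:47352972-47353221, plus strand: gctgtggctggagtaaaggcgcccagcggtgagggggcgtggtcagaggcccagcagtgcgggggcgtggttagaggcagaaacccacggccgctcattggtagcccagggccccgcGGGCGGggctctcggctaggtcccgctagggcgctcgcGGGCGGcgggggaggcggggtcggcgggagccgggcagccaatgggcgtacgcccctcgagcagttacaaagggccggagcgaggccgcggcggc
The Tgfbr2 window has 58.4% G and C and 12 CG dinucleotides, and it matched none of the 6 motifs. The Tgfbr1 window has 74.8% G and C, 29 CG dinucleotides and 2 GC boxes. The RefSeq table lists another Tgfbr1 promoter, chr4:47385966-47386215, with 52.8% G and C, 3 CG dinucleotides and 1 CAGA box. The RefSeq table gave promoters for 6 of the 10 genes; Tgfb3, Tgfbr3, Smad7 and Skil had no entry.

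Smad7 and Skil encode inhibitors that TGF-beta signalling itself is known to induce. SMAD7 occupies the type I receptor and brings ubiquitin ligases to it, and SnoN, the product of Skil, binds SMAD complexes on DNA and represses their targets through corepressors. Smad7 (ENSMUSG00000025880, chromosome 18) had 61.4, 53.1, 55.9 and 48.2 CPM in Sin3a CKO 1 to 4, against 53.1, 51, 54.5 and 58.2 CPM in Control 1 to 4. The groups overlapped fully and their means were nearly equal, 54.6 ± 5.49 CPM in Sin3a CKO and 54.2 ± 3.03 CPM in Control libraries (SD, n = 4 each). The log2 fold change was 0.01 ± 0.09 (adjusted p = 0.937), with a 95% interval of -0.18 to 0.20, or 0.26 ± 0.12 (adjusted p = 0.148) with length and GC trends removed. Its sign changed with the setting.

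Skil (ENSMUSG00000027660, chromosome 3, 31095058 to 31122577) had 65.8, 51, 42.1 and 54.4 CPM in Sin3a CKO 1 to 4, against 80.1, 73.7, 78.2 and 117.6 CPM in Control 1 to 4. Each knockout was below each control, and Control 4 was far above the other controls. Skil fell by 0.71 ± 0.17 (adjusted p = 0.0106), or by 0.60 ± 0.13 without Control 4 (adjusted p = 0.00723). Counts of Smad7 over those of Skil, per exon length, were 2, 2.23, 2.84 and 1.9 in Sin3a CKO 1 to 4, against 1.42, 1.48, 1.49 and 1.06 in Control 1 to 4. The ratio was higher in each knockout library than in any control.

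**Figure D2:**
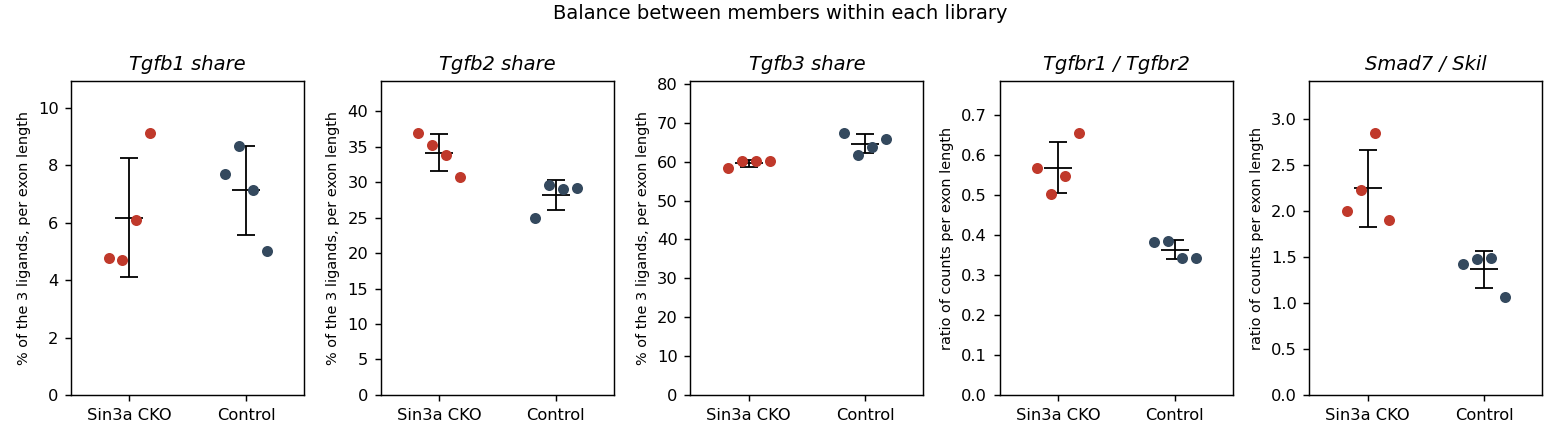
Shares of Tgfb1, Tgfb2 and Tgfb3 among the 3 ligands (%, per exon length) and the ratios of Tgfbr1 to Tgfbr2 and of Smad7 to Skil (counts per exon length), with 1 point per library, mean bar and SD whiskers (n = 4 per group), Sin3a CKO left of Control. The groups are apart for the Tgfb2 and Tgfb3 shares and for both ratios, with Tgfbr1 to Tgfbr2 at 0.502 to 0.654 in Sin3a CKO and 0.343 to 0.384 in Control libraries.

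Ordered by level per exon length, Sin3a CKO libraries ran from Tgfbr2 through Ltbp3, Tgfb3, Tgfbr3, Tgfbr1, Smad7, Tgfb2, Ltbp1 and Skil to Tgfb1. In Control libraries the order was Tgfbr2, Tgfb3, Ltbp3, Tgfbr3, Tgfb2, Tgfbr1, Smad7, Ltbp1, Skil and Tgfb1. Neighbours in the order mostly shared their range over libraries. The exceptions in Sin3a CKO were Tgfbr2, which stood clear above Ltbp3, and Tgfb1, which stood clear below Skil. In Control libraries Tgfbr3 (18.1 to 28.6 CPM per kb) stood clear above Tgfb2 (11.8 to 15.3), and Tgfb1 again clear below Skil. Tgfb2 ranked 7 in Sin3a CKO and 5 in Control libraries, and Tgfbr1 ranked 5 in Sin3a CKO and 6 in Control libraries. With the longest annotated transcript in place of the merged exons, Ltbp3 led both orders (26.6 CPM per kb in Sin3a CKO and 45.1 in Control), since its longest transcript has 5729 bases and its merged exons 9069.

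**Figure D3:**
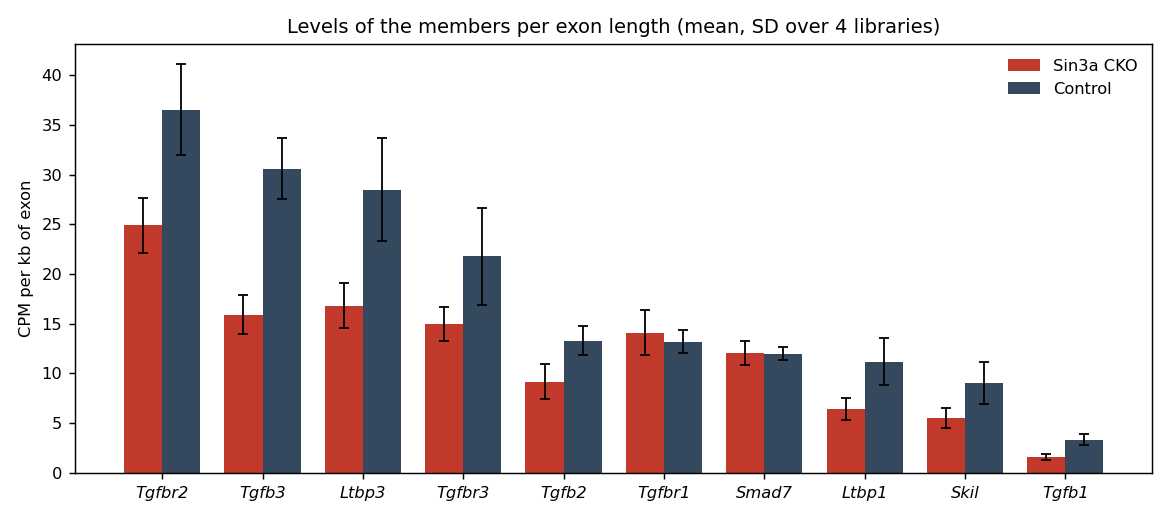
Mean level of each gene in CPM per kb of merged exon, with SD whiskers (n = 4 libraries per group), Sin3a CKO bars left of Control bars, genes ordered by their Control level; the axis starts at 0. Tgfbr2 is highest and Tgfb1 lowest in both groups, at 24.9 and 1.6 CPM per kb in Sin3a CKO and 36.5 and 3.33 in Control libraries.

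Identifiers in the labels divide the libraries by prefix: s1244 (Sin3a CKO 1 to 3 and Control 3), s686 (Sin3a CKO 4 and Control 1 and 2) and s722 (Control 4). No source used here explains the prefixes. Within s686 the 8 genes that fell differed by -1.18 (Tgfb3) to -0.36 (Tgfbr3) on the log2 scale, and within s1244 by -1.07 (Tgfb1) to -0.37 (Tgfb2), each with only 1 library in one of the groups and so with no test. All 8 were lower by the test with prefix as a block, a fit that takes Control 4 out of the comparison. Tgfb2 was at -0.91 within s686 and -0.37 within s1244, and Tgfb3 at -1.18 and -0.75, the widest gaps among the ligands.

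**Figure D4:**
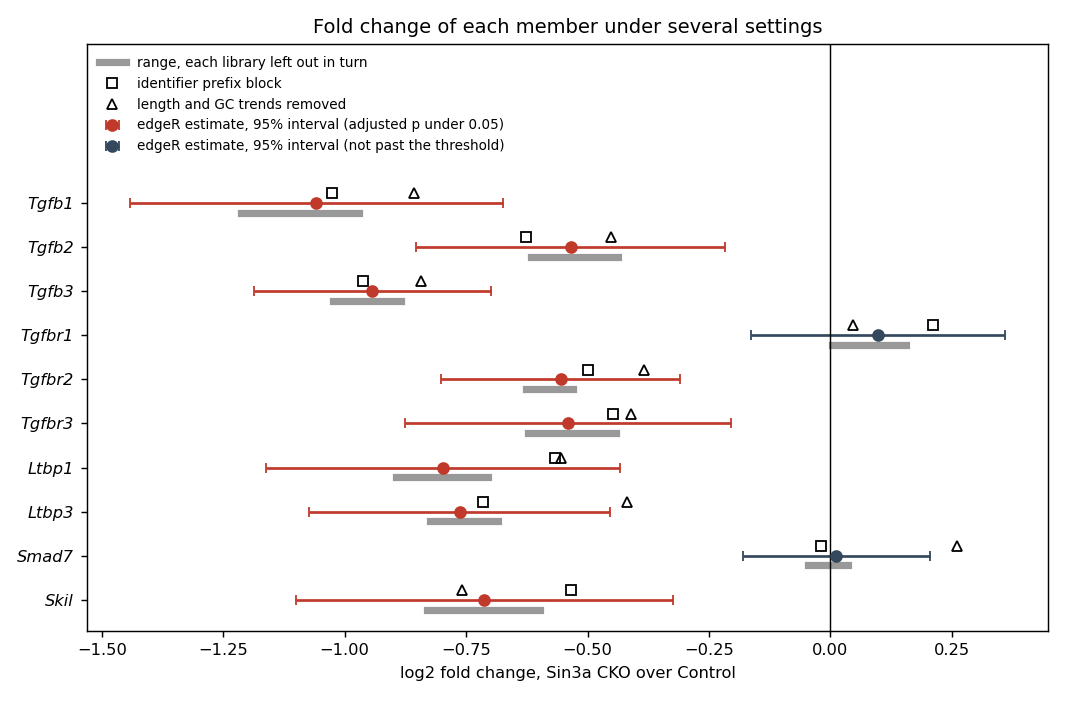
Log2 fold change of each gene, Sin3a CKO over Control (horizontal axis): circles with 95% intervals from edgeR, grey bars for the range when each library is left out in turn, squares with identifier prefix as a block, and triangles with length and GC trends removed. The estimates of the 8 genes that fell lie left of 0 under each of these settings, from -1.21 to -0.38, and Tgfbr1 and Smad7 lie around 0.

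Genes linked to the storage and release of the ligand were next looked at as a list of 26, chosen by role. The list was not limited to proteins that bind the ligand. Of 25 tested, 14 fell and 11 did not pass, with a median of -0.42 (0.04 over all genes) and 56% lower against 16.1% of all genes. Ltbp4 and Ltbp2, further LTBP family members of elastic fibres, fell by 1.49 ± 0.21 and 1.09 ± 0.30 (adjusted p = 0.000652 and 0.0207). Ltbp4 averaged 249 ± 62.1 CPM in Sin3a CKO and 700.1 ± 152.5 CPM in Control libraries. The call of Ltbp2 ended in 3 of 20 other settings, among them without the filter on low counts (adjusted p = 0.0661) and without Control 4 and Sin3a CKO 3 (adjusted p = 0.0695). Fbn1, the fibrillin to which LTBPs attach, fell by 0.52 ± 0.18 (adjusted p = 0.0479), with overlapping groups. The smallest p of the list was that of Lrrc32, which encodes GARP, a cell-surface anchor of latent TGF-beta. It had 4.79, 3.85, 3.59 and 2.42 CPM in Sin3a CKO 1 to 4, against 21.7, 16.4, 18.4 and 24.4 CPM in Control 1 to 4, and fell by 2.46 ± 0.22 (adjusted p = 5.79e-05). The relative Nrros, an anchor on macrophages and microglia, was at -0.42 ± 0.52 and did not pass; without Control 4, where it had 3.59 CPM against 23.8 to 28.2 CPM in the other controls, it was at -0.83 and passed (adjusted p = 0.00782).

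Of the activators, Itgav, the alpha v integrin chain that grips the propeptide, fell by 0.42 ± 0.14 (adjusted p = 0.0438). Its call, like that of Fbn1, ended under several settings, length and GC trends and the prefix block among them. Its partners Itgb8 (0.10 ± 0.18) and Itgb6 (1.66 ± 0.84, adjusted p = 0.169) did not pass. Itgb6 is an epithelial gene, at 1.54 ± 0.999 CPM in Sin3a CKO and 0.486 ± 0.526 CPM in Control libraries. The epithelium markers summed to a median of 531.3 CPM in Sin3a CKO and 73.4 CPM in Control libraries, and 0 of 16 passed. Sftpc alone averaged 465.5 ± 432.4 CPM in Sin3a CKO and 98.3 ± 132.5 CPM in Control libraries. With the epithelium markers as a covariate the log2 fold change of Itgb6 was 0.51 ± 0.40 (adjusted p = 0.382), and with prefix as a block it was 0.29 ± 0.40. Without Control 3 it was 2.75 ± 0.77 and passed (adjusted p = 0.0267). The activator thrombospondin (Thbs1, -0.40 ± 0.23) and the proprotein convertase Furin (-0.32 ± 0.13), which cleaves the ligand from its propeptide, did not pass. Thbs1 was at -0.14 ± 0.09 without Control 4 and at -0.03 ± 0.10 with prefix as a block. Furin was past the threshold in 6 of 20 other settings, among them DESeq2 (-0.35, adjusted p = 0.0213) and without Control 4 (-0.22, adjusted p = 0.0427), and was at -0.01 with length and GC trends removed.

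Among 14 other receptors, co-receptors and receptor partners of the family, 5 fell, 1 rose and 8 did not pass (median -0.30), or 35.7% lower and 7.14% higher, against 16.1% and 17.3% of all genes. Acvrl1 and Eng, which encode the type I receptor ALK1 and the co-receptor endoglin, both known from endothelium, fell by 1.03 ± 0.17 and 0.94 ± 0.13 (adjusted p = 0.0012 and 0.000556). Acvrl1 averaged 51.6 ± 9.83 CPM in Sin3a CKO and 105.2 ± 19.1 CPM in Control libraries, and Eng averaged 38.2 ± 5.26 CPM in Sin3a CKO and 72.9 ± 11.2 CPM in Control libraries. Endothelium markers summed to 70.5 to 148.2 CPM in Sin3a CKO and 52.1 to 261.3 CPM in Control libraries, with 1 of 12 lower, and their part in these falls was not tested. Cd109, a GPI-anchored TGF-beta co-receptor, had the smallest p and fell by 1.88 ± 0.20 (adjusted p = 0.000115). Bmpr2, the type II receptor for BMPs, rose by 0.49 ± 0.07 (adjusted p = 0.000728). Bambi, a decoy that resembles a type I receptor without its kinase, was at -0.20 ± 0.10 and did not pass, but did in 4 of 20 other settings. The count of falls in this list was unsteady, with 3 to 9 over the other settings.

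The SMAD proteins that carry the signal and their regulators included genes that moved in each direction. Of 26 tested, 4 rose, 4 fell and 18 did not pass, with a median of -0.01 and 15.4% in either direction, close to the 16.1% lower and 17.3% higher of all genes. The signal carriers Smad2 (0.13 ± 0.09), Smad3 (-0.17 ± 0.16) and the shared partner Smad4 (-0.09 ± 0.09) did not pass. Smad6, the inhibitor related to Smad7 that acts mainly on BMP signals, fell by 0.38 ± 0.10 (adjusted p = 0.0129), and was at -0.06 ± 0.18 (adjusted p = 0.864) with length and GC trends removed. Ski, the relative of Skil, was at -0.13 ± 0.19 and did not pass, or at -0.42 (adjusted p = 0.0165) without Sin3a CKO 3. Tgif1, a homeobox repressor of SMAD targets, rose by 0.47 ± 0.09 (adjusted p = 0.00359), and Usp11, a deubiquitinase that stabilises TGF-beta receptors, fell by 1.05 ± 0.11 (adjusted p = 0.000112). The ubiquitin ligases Smurf2 (-0.04 ± 0.10) and Trim33 (0.09 ± 0.09) did not pass.

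The activin branch of the family signals through the same SMADs. Of its 22 genes 15 were tested, and 3 fell, 2 rose and 10 did not pass (median -0.19). These were 20% lower and 13.3% higher, near the 16.1% and 17.3% of all genes. Gdf11, a ligand of activin receptors, rose by 0.99 ± 0.14 (adjusted p = 0.000525), at 14 ± 1.47 CPM in Sin3a CKO and 7.03 ± 1.03 CPM in Control libraries. Fstl3, a secreted activin binder, fell by 1.34 ± 0.17 (adjusted p = 0.000348), at 8.74 ± 2.04 CPM in Sin3a CKO and 22.1 ± 2.38 CPM in Control libraries. The activin subunit Inhba (0.14 ± 0.16), the type I receptor Acvr1b (-0.12 ± 0.16) and the antagonist follistatin (Fst, 0.22 ± 0.31) were each below 7 CPM on average and did not pass.

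Of 38 tested genes known to respond to TGF-beta in other cells, 14 fell, 1 rose and 23 did not pass, a share of 36.8% lower against 16.1% of all genes, with a median of -0.38. Tgfbi, a matrix protein named for its induction by TGF-beta, fell by 0.72 ± 0.12 (adjusted p = 0.00137), at 368.1 ± 28.4 CPM in Sin3a CKO and 606.5 ± 105.3 CPM in Control libraries. Angptl4, a lipase inhibitor and the list's smallest p among falls, fell by 1.02 ± 0.10 (adjusted p = 0.000107). Several widely used reporter genes of the pathway did not pass. Ccn2, a matricellular growth factor listed as Ctgf in the table, was at -0.66 ± 0.23 (adjusted p = 0.0514), or -0.41 (adjusted p = 0.00934) without Control 4; it passed in 10 of 20 other settings. Pmepa1, a feedback inhibitor that is a direct SMAD target, was at 0.08 ± 0.16, and Cdkn1a at 0.17 ± 0.20, and neither passed. Id1, an inhibitor of basic helix-loop-helix factors that BMP and TGF-beta regulate, fell by 0.57 ± 0.11 (adjusted p = 0.00375), whereas its relative Id2 rose by 0.44 ± 0.09 (adjusted p = 0.00493), a call that ended with length and GC trends removed (adjusted p = 0.12). The list mixes genes that other pathways also drive, and its collagens Col1a1, Col1a2 and Col3a1 are also among the mesenchyme markers, so its count does not measure TGF-beta signalling, which was not measured.

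**Figure D5:**
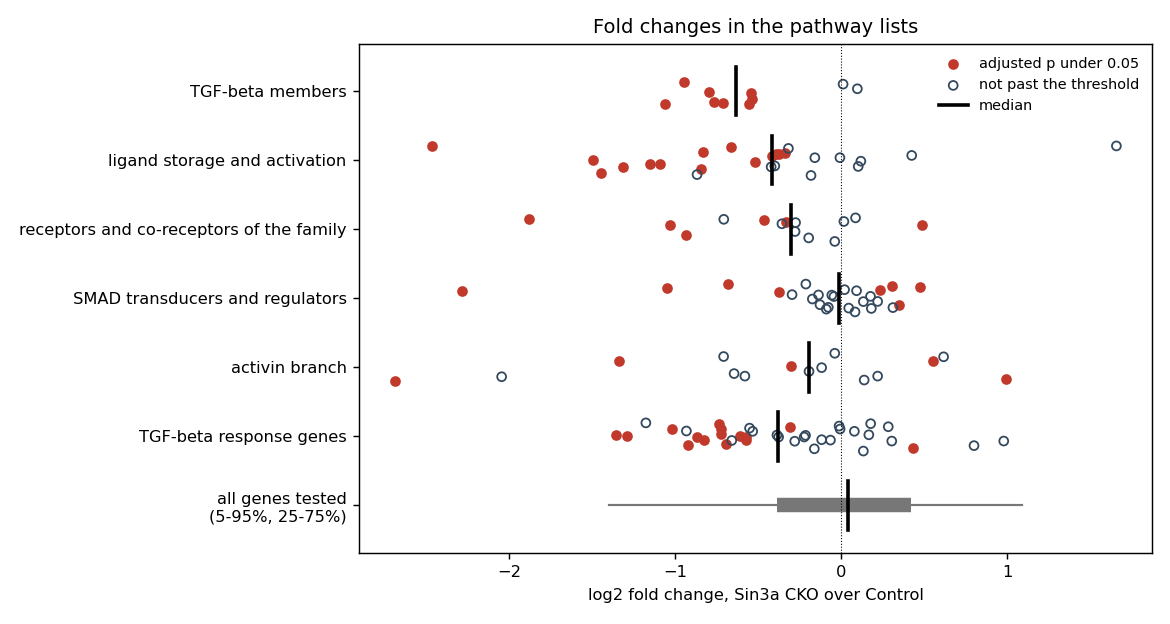
Log2 fold change, Sin3a CKO over Control (horizontal axis), of each tested gene of the TGF-beta members and of the 5 pathway lists: filled points passed an adjusted p under 0.05, open points did not, and vertical bars mark medians. The bottom line gives all 20315 genes tested, with the 25th to 75th percentile as the thick bar (-0.39 to 0.42) and the 5th to 95th as the thin one (-1.40 to 1.09). The medians of the members (-0.63) and of ligand storage and activation (-0.42) lie to the left of that of the SMAD transducers and regulators (-0.01).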

How the data were processed

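RNA of sorted mesenchymal cells was sequenced in 8 libraries, 4 Sin3a CKO and 4 Control, grouped by their titles. Per the labels' protocols, RNA from TRIzol went into SMARTer v4 cDNA and Nextera XT libraries. The submitters' processing notes name mm10 and, with no roles, RSEM 1.3.0, STAR 2.5.3a and edgeR. The authors deposited values per gene that were taken to be RSEM expected counts, and all were whole numbers. That unit was assumed. Annotation release and strand setting were not given in these sources. Positions, exon lengths and GC content came from GENCODE M21 (GRCm38), which held 51633 of the 51912 identifiers.

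Genes were kept by filterByExpr (minimum count 10), scaled by TMM and tested in R 4.3.3 with edgeR 4.0.16 (2-sided quasi-likelihood, robust, group as the only term), with Benjamini-Hochberg adjustment over 20315 genes. SE is the absolute log2 fold change divided by the square root of F. Levels are CPM on TMM-scaled totals, with CPM per kb on merged exons. The test was checked on simulated data. P-values set the group difference against the spread between these libraries, which for each gene was estimated partly from all genes.

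The members and the pathway lists were chosen with earlier results of these data known. Named genes are the 10 members, Sin3a, genes picked for each list by role, and the called gene with the smallest p per list and direction; list genes not named are counted only, and some results are not reported here. Promoters came from RefSeq (GRCm38.p6). Alternatives were other scaling (RLE, upper quartile), other filters (none, or mean CPM of 10 or more), other tools (DESeq2 1.42.0 and voom from limma 3.58.1), blocks for replicate number and identifier prefix, epithelium and immune marker covariates, removal of length and GC trends through splines with 5 degrees of freedom, and libraries left out.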

Additional observations from a re-analysis of the deposited data

Results flagged for a closer look

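Some values lay far from the other libraries of their group, with a gap to the nearest library beyond Dixon's 95% critical share of the group's range. Chance alone gives about 1 such group in 20, and 106 groups were looked at, of which 13 stood out.

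Control 4 held 8 of them. Its level was 328.7 CPM for Ltbp3 (other controls 230.3 to 239.3), 117.6 CPM for Skil (73.7 to 80.1), 15 CPM for Itgb8 (11.2 to 11.8) and 1681.1 CPM for Thbs1 (810.1 to 884.8). It was 88.2 CPM for Smad2 (70.9 to 73.8), 105.3 CPM for Smad3 (63.3 to 69) and 152.1 CPM for Ccn2 (73.4 to 85.3). The ratio of Smad7 to Skil was lowest there, 1.06 against 1.42 to 1.49 in the other controls. Control 4 is the library with the fewest immune transcripts and the only one of its identifier prefix. It also had the lowest sum of endothelium markers (52.1 CPM) and the highest sum of mesenchyme markers (24165.6 CPM). Whether any of these traits bears on these values was not tested.

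Elsewhere, Tgfb3 had 43.8 CPM in Sin3a CKO 4, against 56.2 to 58.2 CPM in the other knockouts. Id1 had 45.9 CPM in Sin3a CKO 3, against 35.8 to 37.6 CPM in the others. Acvr1b had 4.91 CPM in Control 3, against 6.76 to 7.07 CPM in the other controls. Tgfb2 was 25% of the 3 ligands in Control 1 (29% to 29.6% in the others), and Tgfb3 was 58.3% of them in Sin3a CKO 1 (60.1% in each of the others).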

How the results depend on the processing

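Log2 fold changes and counts are given as in the report, with edgeR's main count in brackets. The 8 members that fell kept their direction under all 20 alternatives, and all 8 passed except with the epithelium covariate (7, without Tgfbr3) and with length and GC trends removed (5). That last setting gave 2102 lower genes in all (3274), 9 lower in ligand storage and activation (14) and 0 higher response genes (1). Upper-quartile scaling moved the median of all genes to -0.06 (0.04) and gave 2790 higher and 4522 lower (38.2% of calls higher, against 51.8%); no filter gave 2233 higher (3518) and 3823 lower (36.9% higher). Ligand storage and activation had 1 higher gene (0) under DESeq2, replicate block, prefix block, epithelium covariate and length and GC removal, and 0 to 1 with libraries left out in turn. Lower receptors (5) numbered 8 under RLE, no filter and DESeq2, 9 under upper quartile, 3 under prefix block and epithelium covariate, and 3 to 8 with libraries left out. Higher SMAD genes (4) numbered 2 under upper quartile, 1 with no filter, 7 under prefix block and 1 to 4 with libraries left out; lower ones (4) numbered 8 under upper quartile, 7 under DESeq2 and without Control 4 and Sin3a CKO 3, and 4 to 8 with libraries left out. DESeq2 gave 5 lower activin genes (3). Higher response genes numbered 2 under prefix block (1), and lower ones 22 under upper quartile and DESeq2 (14). Signs turned only for genes that did not pass the test. Under upper quartile and no filter these were Tgfbr1 (-0.006, -0.003), Trim33 (-0.009, -0.008), Pmepa1 (-0.021, -0.022) and Smad7 (-0.091, -0.090). Smad7 was also at -0.018 (RLE and DESeq2) and -0.032 (mean of at least 10 CPM). Under prefix block the values were Smad7 -0.020, Smad3 0.067, Smad4 0.010, Smurf2 0.028, Acvr1b 0.007, Fst -0.158 and Pmepa1 -0.061. With the epithelium covariate they were Smad7 -0.045, Smurf2 0.008 and Pmepa1 -0.119, and with length and GC trends removed Smad3 0.027, Ski 0.102, Smurf2 0.047 and Acvr1b 0.053. Without Control 4 and Sin3a CKO 3 they were Smad7 -0.026, Smad3 0.038, Smurf2 0.037, Inhba -0.016, Fst -0.082, Pmepa1 -0.094 and Cdkn1a -0.021. With 1 library left out, Smad7 ran from -0.047 to 0.037, Itgb8 from -0.001 to 0.215, Fst from -0.064 to 0.385 and Pmepa1 from -0.098 to 0.199. The cause of these changes was not tested. Deviations from the group mean in same-numbered libraries had correlations of -0.27, 0.281, -0.0993 and 0.269. Libraries with different numbers ran from -0.509 to 0.466. With so few pairs this cannot show whether the numbers pair the samples. The replicate block gave 3560 higher and 3222 lower genes and all 8 members. It ended the calls of Ltbp2 (-1.13, adjusted p = 0.0763), Fbn1 (0.0514) and Itgav (0.0549). It brought Itgb6 (1.85, adjusted p = 0.0187) and Ccn2 (0.0308) past the threshold, and changed no other named gene's call.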
